A study of Rattus norvegicus with 6 samples.

Results

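The genes described here carry out fatty acid oxidation and ketone body use. They are 34 genes, chosen by name, of 37183 symbols in a table of RNA levels from cultured rat hippocampal astrocytes and hippocampal neurons. All 34 were found and had a value in every library. By step, 5 belong to the carnitine shuttle, 16 to the mitochondrial oxidation spiral, 7 to the peroxisome and 3 to ketone body use, and 3 are transcription regulators of the pathway. The series asked how insulin affects lipid metabolism in brain cells. Each cell type had 1 library of control cells at 0 h, 1 after 6 h and 1 after 12 h of 200 nM insulin, so no group had replicates. The control cells are titled as given saline and characterised as untreated. Primary astrocytes were grown in medium with 10% FBS and 25 mM glucose and moved 4 h before treatment to 2% FBS and 5 mM glucose. Primary neurons were grown in serum-free Neurobasal with 1% B27 and moved 4 h before treatment to the insulin-free form of that supplement. The labels do not say how many animals gave the cells, and the insulin libraries were collected later after the change of medium than their controls.

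Long-chain fatty acids enter mitochondria as carnitine esters and are then shortened by repeated rounds of dehydrogenation, hydration, dehydrogenation and thiolysis. Peroxisomes shorten very long and branched chains with enzymes of their own. Ketone bodies, made chiefly in the liver, are turned back into acetyl-CoA in the brain, and astrocytes are regarded as the main brain cells that oxidise fatty acids.

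The deposited values are log2 FPKM, which counts fragments relative to transcript length and library size, brought to shared quantiles across the libraries. Because FPKM is per length, levels of different genes can be set side by side. A level of 1 FPKM was reached by 25.3% of the symbols with a value in each library, and most members lay below it. A gene was compared between 2 libraries when it reached 1 FPKM in either of them, and it was counted as past 2-fold at a log2 difference of 1 or more in size. With 1 library per group no difference has a replicate check, and no p-value was computed. The labels were set against cell type markers. The 10 astrocyte markers summed to between 49.3 and 57.9 FPKM in the libraries labelled astrocyte and to between 295 and 311 FPKM in those labelled neuron. In the control libraries 9 of the 10 were lower in the astrocyte-labelled one, and Fgfr3 was higher, at 22.1 FPKM against 3.70 FPKM. Aqp4 was at 0.0985 FPKM there, against 26.6 FPKM in the neuron-labelled control, while Slc1a2 and Aldh1l1 were below 1 FPKM in all libraries and Gja1 was between 10.8 and 22.6 FPKM. The 6 pericyte and smooth muscle markers summed to between 425 and 504 FPKM in the libraries labelled astrocyte and to between 4.52 and 10.6 FPKM in those labelled neuron. Tagln alone made up 353 to 417 FPKM of the first range, and Myh11 and Rgs5 were at 0.00875 FPKM or less wherever they had a value. The 8 oligodendrocyte lineage markers summed to between 3.62 and 3.95 FPKM and to between 111 and 118 FPKM in the same order, mostly through Olig1 and Olig2. Mog and Cspg4 went the other way, at 2.21 and 1.32 FPKM in the astrocyte-labelled control, against 1.69 and 0.397 FPKM in the neuron-labelled control. The 9 neuron markers summed to between 1.84 and 3.23 FPKM and to between 55.1 and 65.2 FPKM. Tubb3 alone made up 30.0 to 33.7 FPKM of the second range. Rbfox3 and Syt1 were below 1 FPKM in all libraries, and Snap25 was between 0.725 and 1.02 FPKM in the neuron-labelled ones. Slc17a7, which marks excitatory neurons, was at 0.00378 FPKM or less wherever it had a value. The cultures are therefore called astrocyte-labelled and neuron-labelled.

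Most members lay below 1 FPKM in each library, but the median member was above the median symbol in all of them. In the controls the median member was at 0.512 FPKM in the astrocyte-labelled culture and at 0.787 FPKM in the neuron-labelled one. The median symbol with a value was at 0.178 FPKM in both. The 3 highest symbols held between 57.2% and 60.1% of the summed FPKM of each library. Their part in the levels of other genes was not tested. In the astrocyte-labelled cultures 4 of 34 members reached 1 FPKM at 0 h, 9 at 6 h and 7 at 12 h. In the neuron-labelled cultures 14, 15 and 14 did, against 25.3% of all symbols with a value in each library. Over all libraries 18 members reached that level at least once and 16 never did. Acadvl, the very long chain acyl-CoA dehydrogenase that opens each round on long chains, was the highest member in all 6 libraries. It lay above 92.1% of the symbols with a value in the astrocyte-labelled control and above 91.2% in the neuron-labelled control. The lowest member was Ppargc1a in the astrocyte-labelled libraries, at 0.00474 FPKM or less, and Ehhadh in the neuron-labelled ones, at 0.0205 FPKM or less. Echs1, the mitochondrial enoyl-CoA hydratase for short chains, stayed between 0.0563 and 0.126 FPKM in all 6 libraries, the lowest of the mitochondrial members in each.

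**Figure D1:**
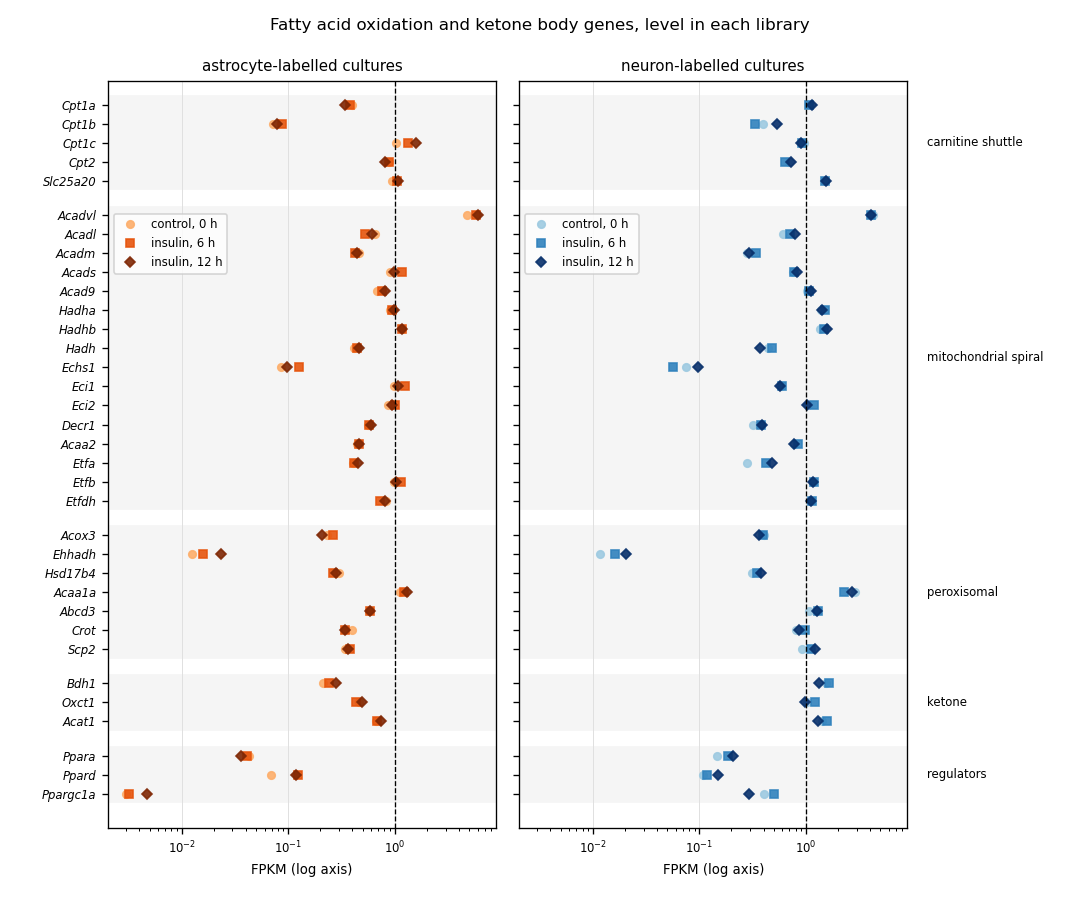
Level of each of the 34 members in FPKM (log axis), in the 3 astrocyte-labelled libraries on the left and the 3 neuron-labelled libraries on the right; each point is 1 library and the dashed line marks 1 FPKM. Acadvl stands to the right of all other members in every library, and the ketone genes lie below 1 FPKM in the astrocyte-labelled libraries and near or above it in the neuron-labelled ones.

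After insulin, no member differed 2-fold from its control in either culture at either time. In the astrocyte-labelled cultures Cpt1c and Acadvl had their highest levels at 12 h. The largest differences of a mitochondrial gene were those of Etfa in the neuron-labelled cultures, at levels below 1 FPKM. Among the members compared in the astrocyte-labelled cultures, 0 of 9 were past 2-fold at 6 h, where 1.93% of all 6206 genes compared were, and 0 of 7 at 12 h, where 1.53% of 6221 were. For the neuron-labelled cultures the counts were 0 of 15 at 6 h against 2.89% of 6610 genes, and 0 of 15 at 12 h against 3.84% of 6641 genes. With no floor on the level the count was again 0 of 34 in each of these comparisons. The shares over all genes were then 13.4% and 13.3% at 6 h and 12 h in the astrocyte-labelled cultures and 17.3% and 18.5% in the neuron-labelled ones.

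At the lower threshold of 1.5-fold, 0 of 9 compared members were past it at 6 h in the astrocyte-labelled cultures, against 7.52% of all genes, and 1 of 7 at 12 h, against 6.03%. For the neuron-labelled cultures 0 of 15 were past it at 6 h, against 11.1% of all genes, and 0 of 15 at 12 h, against 14.9%. The single compared member past 1.5-fold was Cpt1c. Some members below 1 FPKM in all libraries were also past it. In the astrocyte-labelled cultures these were Ppard, at 0.83 and 0.79, and at 12 h Ehhadh at 0.91 and Ppargc1a at 0.67. In the neuron-labelled cultures they were Etfa, at 0.60 and 0.80, and at 12 h Ehhadh at 0.81. The share of all genes past 1.5-fold with no floor was not computed. The 6 h and 12 h differences of a culture share its control library, so they are not independent of each other.

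**Figure D2:**
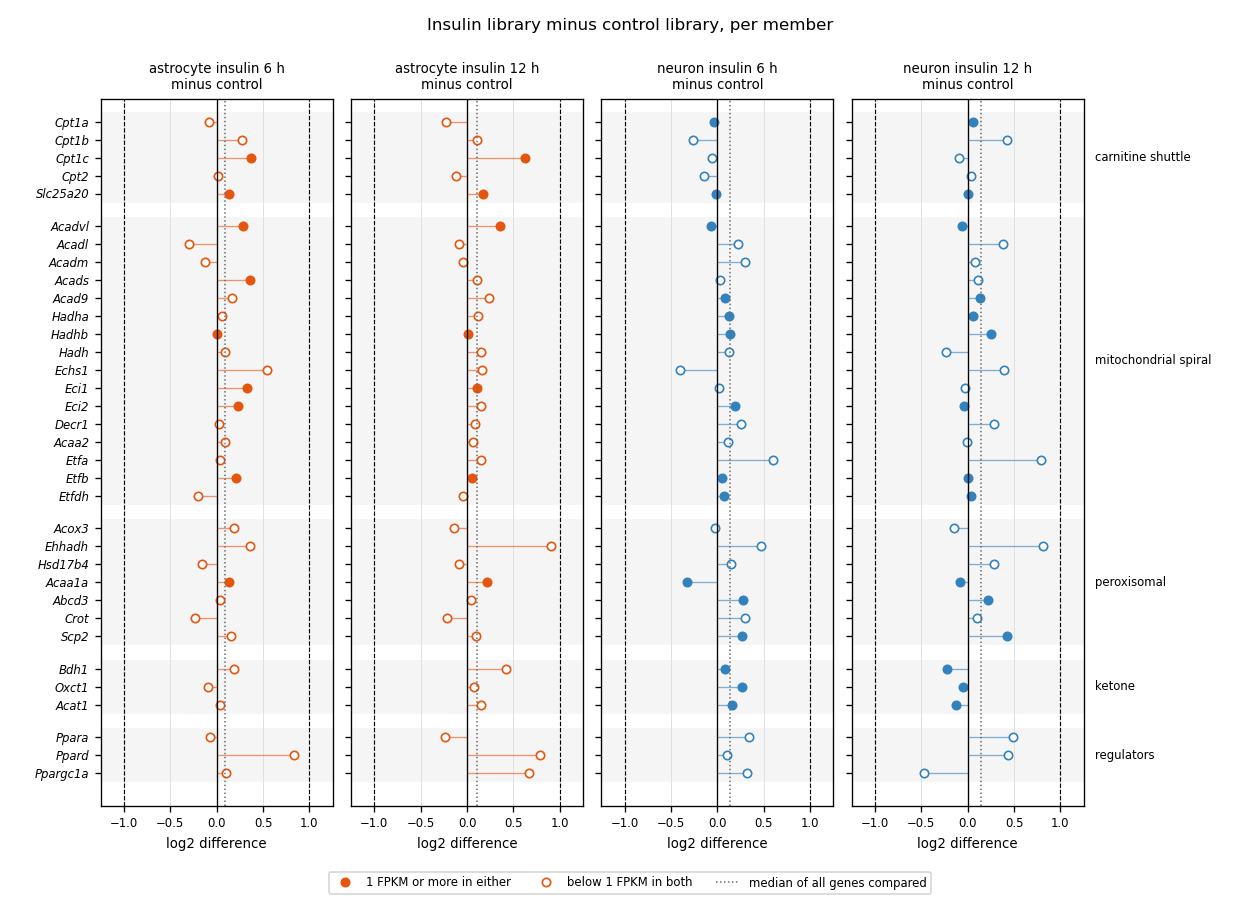
Log2 difference of each member, insulin library minus the control library of the same culture, with 1 panel per culture and time; filled points reached 1 FPKM in either library, open points did not, the dotted line is the median of all genes compared and the dashed lines mark 2-fold. No point crosses a dashed line, and the filled point farthest to the right is Cpt1c at 12 h in the astrocyte-labelled cultures.

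In the carnitine shuttle, the 3 forms of carnitine palmitoyltransferase 1 had unlike levels and unlike differences. Cpt1c, the brain form, which has little transferase activity, was at 1.02 FPKM at 0 h, 1.32 FPKM at 6 h and 1.57 FPKM at 12 h in the astrocyte-labelled cultures. Its log2 differences there were 0.37 at 6 h and 0.62 at 12 h. Neuron-labelled cultures had it at 0.965, 0.924 and 0.907 FPKM over the same times. Its 3 neuron-labelled levels were thus all below its 3 astrocyte-labelled levels. Cpt1a, the liver form that sets the rate of entry in many tissues, was at 0.400, 0.377 and 0.342 FPKM in the astrocyte-labelled cultures and at 1.09, 1.07 and 1.13 FPKM in the neuron-labelled ones. Cpt1b, the muscle form, was at 0.0869 FPKM or less in the first set and between 0.330 and 0.530 FPKM in the second. For both genes the 2 cultures did not overlap. All 3 astrocyte-labelled levels lay below all 3 neuron-labelled ones for 21 of the 34 members, against 36.7% of the 19471 symbols with a value in every library. The opposite held for 7 members, against 25.8% of symbols. The translocase gene Slc25a20 had 0.947, 1.04 and 1.07 FPKM in the astrocyte-labelled cultures and between 1.51 and 1.53 FPKM in the neuron-labelled ones, where its log2 differences were -0.01 and 0.00. Cpt2, which reforms acyl-CoA inside the mitochondrion, stayed between 0.815 and 0.891 FPKM and between 0.634 and 0.719 FPKM in the same order of cultures.

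Among the mitochondrial genes, Acadvl was at 4.77 FPKM at 0 h, 5.79 FPKM at 6 h and 6.09 FPKM at 12 h in the astrocyte-labelled cultures, log2 differences of 0.28 and 0.35. Neuron-labelled cultures had it at 4.24, 4.04 and 4.05 FPKM, log2 differences of -0.07 and -0.06. Both insulin levels were thus above the control in the first culture and below it in the second. Insulin levels on opposite sides of the control in the 2 cultures were found for 4 of the 18 members that reached 1 FPKM, a share near the 23.4% of all such genes. The dehydrogenases for shorter chains were lower in level. Acadl, for long chains, lay between 0.531 and 0.787 FPKM, Acadm, for medium chains, between 0.277 and 0.458 FPKM, and Acads, for short chains, between 0.754 and 1.16 FPKM over all 6 libraries. Acad9, which also helps assemble complex I, had 0.682, 0.766 and 0.806 FPKM in the astrocyte-labelled cultures and 1.01, 1.07 and 1.11 FPKM in the neuron-labelled ones. In the second set these steps are smaller than the all-gene medians, and they turn to -0.05 and -0.01 when centred on them. Of the remaining differences of compared mitochondrial members after insulin, the highest was 0.36 for Acads at 6 h in the astrocyte-labelled cultures. That gene entered the comparison only through its 6 h level of 1.16 FPKM, with 0.906 FPKM at 0 h and 0.975 FPKM at 12 h.

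The bases before the annotated start of Acadvl are shown because it is the most abundant member. They come from RefSeq (GRCr8, chr10:55236706-55236955, minus strand, 5′ to 3′), while the deposited values are per the submitters' processing notes on the older build Rnor 6.0. Capitals mark the nuclear receptor core motif AGGTCA, searched on both strands, which begins 169 and 17 bases before the start.
Acadvl: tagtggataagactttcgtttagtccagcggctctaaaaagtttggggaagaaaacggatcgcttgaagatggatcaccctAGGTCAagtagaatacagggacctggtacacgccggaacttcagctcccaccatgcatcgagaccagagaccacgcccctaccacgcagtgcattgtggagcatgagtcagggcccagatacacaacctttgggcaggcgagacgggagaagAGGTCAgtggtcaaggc
The motif was found in 6 of the 28 members with a promoter window of 300 bases, 21.4%, against 14.2% of all protein-coding windows.

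Hadha and Hadhb encode the alpha and beta subunits of the trifunctional protein, which carries out the last steps of each round on long chains. Hadha was at 0.898, 0.934 and 0.976 FPKM at 0 h, 6 h and 12 h in the astrocyte-labelled cultures and at 1.37, 1.49 and 1.43 FPKM in the neuron-labelled ones. Hadhb was at 1.16, 1.17 and 1.17 FPKM in the astrocyte-labelled cultures and at 1.34, 1.48 and 1.59 FPKM in the neuron-labelled ones. Both genes were thus higher in each neuron-labelled library than in any astrocyte-labelled one, as were 36.7% of symbols with a value in every library. Neither gene differed by more than 0.25 on the log2 scale after insulin. The 2 genes lie head to head, with their starts 301 bases apart. The stretch between the starts is shown for that reason (RefSeq, GRCr8, chr6:31907501-31907800, plus strand, Hadhb to the left and Hadha to the right), with the GC box GGGCGG or its reverse complement in capitals.
Hadhb-Hadha: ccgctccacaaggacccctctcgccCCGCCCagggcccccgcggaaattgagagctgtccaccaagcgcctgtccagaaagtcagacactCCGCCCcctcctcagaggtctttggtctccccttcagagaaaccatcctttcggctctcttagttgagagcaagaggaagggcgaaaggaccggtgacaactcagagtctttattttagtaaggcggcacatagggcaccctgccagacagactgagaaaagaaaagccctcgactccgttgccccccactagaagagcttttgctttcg
Such a neighbour within 1000 bases was found for 3 of the 28 members, 10.7%, and for 6.86% of all protein-coding genes in the RefSeq table. The other member was Etfdh.

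The electron transfer genes pass electrons from the dehydrogenases to ubiquinone. Etfa had 0.279, 0.421 and 0.484 FPKM in the neuron-labelled cultures, log2 differences of 0.60 and 0.80, and 0.406, 0.417 and 0.452 FPKM in the astrocyte-labelled ones. All of its levels were below 1 FPKM, so it entered no comparison. Its partner subunit gene Etfb was at 1.15, 1.20 and 1.16 FPKM in the neuron-labelled cultures and at 0.994, 1.15 and 1.03 FPKM in the astrocyte-labelled ones. Etfdh, the ubiquinone oxidoreductase, was at 0.833, 0.726 and 0.810 FPKM in the astrocyte-labelled cultures and at 1.09, 1.14 and 1.11 FPKM in the neuron-labelled ones. Of the enzymes that handle double bonds, Eci1 lay between 0.986 and 1.24 FPKM in the astrocyte-labelled cultures and between 0.572 and 0.590 FPKM in the neuron-labelled ones. Decr1 lay between 0.560 and 0.594 FPKM and between 0.320 and 0.389 FPKM in the same order, and Eci2 between 0.857 and 1.19 FPKM over all libraries. Hadh lay between 0.374 and 0.480 FPKM and the thiolase gene Acaa2 between 0.439 and 0.835 FPKM.

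In the peroxisomal group, Acaa1a, the peroxisomal thiolase, was at 1.11, 1.22 and 1.29 FPKM in the astrocyte-labelled cultures and at 2.87, 2.29 and 2.72 FPKM in the neuron-labelled ones. Its insulin levels were above the control in the first culture and below it in the second, and since Acaa1b is a close copy, its reads may be divided. Abcd3, an importer of the peroxisomal membrane, was at 0.568, 0.581 and 0.584 FPKM and at 1.08, 1.30 and 1.26 FPKM in the same order. Scp2, whose protein has a thiolase and a lipid carrier part, was at 0.338, 0.377 and 0.363 FPKM and at 0.918, 1.10 and 1.23 FPKM. For all 3 genes every neuron-labelled level exceeded every astrocyte-labelled one, as for 36.7% of symbols with a value in every library. Crot, which makes carnitine esters for export to mitochondria, stayed between 0.340 and 0.399 FPKM and between 0.803 and 0.988 FPKM. Acox3, an oxidase of branched chains, and Hsd17b4, the D-bifunctional enzyme, were below 0.41 FPKM throughout. Ehhadh, the L-bifunctional enzyme, had log2 differences of up to 0.91 after insulin, at levels of 0.0234 FPKM or less.

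The 3 ketone genes were below 1 FPKM in each astrocyte-labelled library and entered no insulin comparison there. Bdh1, which interconverts hydroxybutyrate and acetoacetate, was at 0.213 FPKM at 0 h, 0.242 FPKM at 6 h and 0.284 FPKM at 12 h in the astrocyte-labelled cultures. Neuron-labelled cultures had it at 1.55, 1.64 and 1.33 FPKM. Oxct1, which activates acetoacetate with CoA, was at 0.464, 0.434 and 0.490 FPKM in the astrocyte-labelled cultures and at 1.02, 1.23 and 0.986 FPKM in the neuron-labelled ones. Acat1, the thiolase that splits acetoacetyl-CoA, was at 0.665, 0.682 and 0.739 FPKM and at 1.41, 1.58 and 1.29 FPKM. In the neuron-labelled cultures all 3 were above the control at 6 h and below it at 12 h, with log2 differences between 0.08 and 0.27 and between -0.22 and -0.05. This order was found for 5 of the 18 members that reached 1 FPKM, against 9.04% of all such genes. Centred on the all-gene median, the 6 h differences were -0.05 for Bdh1, 0.13 for Oxct1 and 0.03 for Acat1, so Bdh1 was then below its control at both times. None of these steps is larger than 1.5-fold, and no replicate shows how far such levels vary.

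The 3 regulators were below 1 FPKM in all libraries. Ppara, a nuclear receptor that activates oxidation genes, was at 0.0427, 0.0407 and 0.0362 FPKM in the astrocyte-labelled cultures and at 0.148, 0.187 and 0.207 FPKM in the neuron-labelled ones. Ppard, a related receptor, was at 0.0690, 0.123 and 0.120 FPKM and at 0.109, 0.117 and 0.148 FPKM. Ppargc1a, a coactivator that raises mitochondrial gene expression, was at 0.00298, 0.00318 and 0.00474 FPKM and at 0.405, 0.504 and 0.292 FPKM. For Ppara and Ppargc1a every astrocyte-labelled level was below every neuron-labelled one, as for 36.7% of symbols with a value in every library.

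Over all 34 members with no floor, medians after insulin lay between 0.05 and 0.12 on the log2 scale and were below the median of all genes in each comparison. In the astrocyte-labelled cultures the median of the members was 0.09 at 6 h and 0.11 at 12 h, against 0.16 and 0.18 over all genes with a value in both libraries. For the neuron-labelled cultures it was 0.12 and 0.05, against 0.29 and 0.28. Relative to the all-gene median, 13 of 34 members were higher at 6 h and 8 of 34 at 12 h in the astrocyte-labelled cultures, and 6 and 10 of 34 in the neuron-labelled ones. With the floor the astrocyte-labelled medians stood above the all-gene median instead, at 0.23 against 0.09 at 6 h and 0.18 against 0.10 at 12 h. Several of those members, among them Acads and Eci2 at 6 h, reached 1 FPKM only in the insulin library, so the medians with the floor are a description of the genes that passed. A floor on the mean of the 6 libraries was also used. At a mean of 1 FPKM, 9 members had medians of 0.14 and 0.15 at 6 h and 12 h, against 0.10 at each time. At a mean of 0.25 FPKM, 28 members had 0.07 and 0.09, against 0.12 and 0.13. The insulin libraries had values for more symbols than their controls (23814 and 23898 against 22891, and 25510 and 25528 against 23927). The part of this in the all-gene medians was not tested.

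The control libraries of the 2 cultures differed far more than the insulin libraries did from their controls. The 3 ketone body genes, Cpt1a and the peroxisomal thiolase gene Acaa1a were lower in the astrocyte-labelled control, while no gene of the mitochondrial spiral differed 2-fold. Of 15 compared members 5 were 2-fold or more lower in the astrocyte-labelled control, against 21.9% of all 7146 genes compared, and 0 were 2-fold higher, against 18.7% of all genes. The median of the 15 was -0.61 and that of all genes -0.10. In the neuron-labelled control 14 members reached 1 FPKM, and in the astrocyte-labelled control 4 did. Most of the 15 thus passed the floor through the neuron-labelled control alone, among them Bdh1, Oxct1, Acat1 and Cpt1a. The counts and the median therefore describe the genes that passed. With no floor 10 of 34 were 2-fold lower and 0 higher, against 46.6% of all genes in either direction. The medians were then -0.48 and -0.10. Bulk RNA does not tell fewer cells of a type from less RNA per cell, and the marker sums above differ between the cultures in the same comparison. Their part in the differences was not tested.

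**Figure D3:**
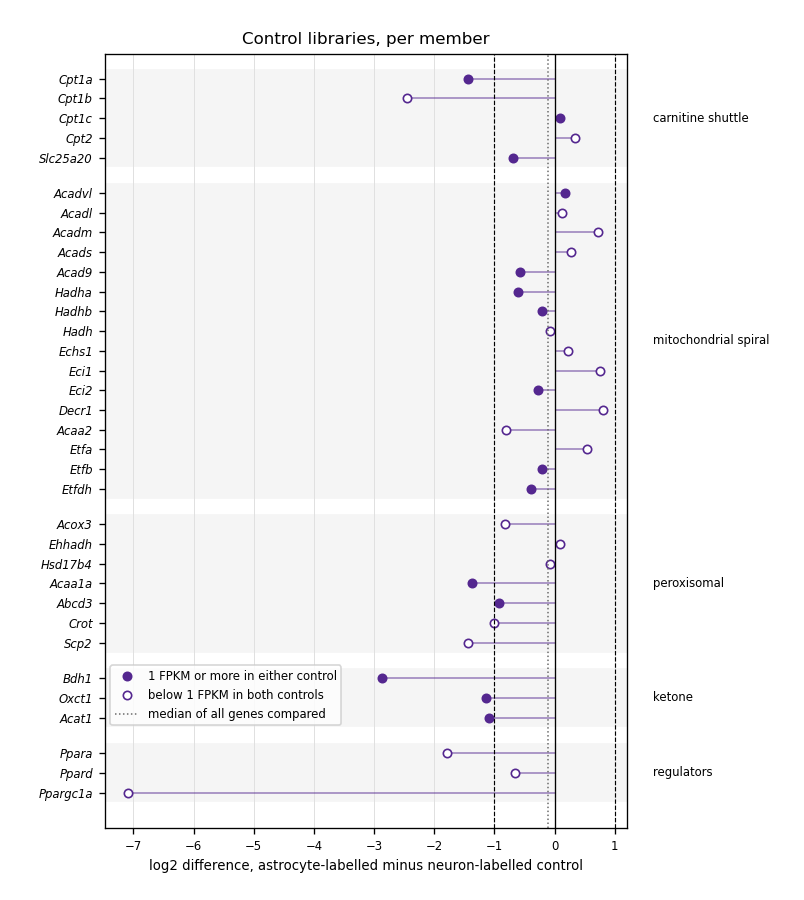
Log2 difference of each member, astrocyte-labelled control minus neuron-labelled control; filled points reached 1 FPKM in either control, open points did not, the dotted line is the median of all genes compared and the dashed lines mark 2-fold. The 3 ketone genes lie at or left of -1.09, and the 16 mitochondrial spiral genes lie between the dashed lines.

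The 5 members past 2-fold were Bdh1, Oxct1 and Acat1 of the ketone group, Cpt1a of the carnitine shuttle and Acaa1a of the peroxisome. Bdh1 had the largest difference among them, -2.87, with 0.213 FPKM against 1.55 FPKM in the neuron-labelled control. Oxct1 differed by -1.14 and Acat1 by -1.09, so all 3 genes of the route from hydroxybutyrate to acetyl-CoA were lower in the astrocyte-labelled control. Acat1 lay close to the threshold, at -0.98 when the differences were centred on the all-gene median and at -0.97 when the quantile normalisation was repeated. Cpt1a differed by -1.45 and Acaa1a by -1.37. With log2(FPKM + 1) in place of log2 FPKM, Bdh1 alone of the 5 stayed past 2-fold.

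Among members below 1 FPKM in both controls, Scp2 differed by -1.44, Crot by -1.01, Cpt1b by -2.46, Ppara by -1.79 and Ppargc1a by -7.09. At such levels the size of a log2 difference is uncertain. Abcd3 at -0.92 and Slc25a20 at -0.69 were the compared members nearest to these. Within the mitochondrial spiral, compared members ranged from -0.61 for Hadha to 0.17 for Acadvl, with a median of -0.28. Over all 16 spiral genes with no floor the median was 0.02, with 8 genes above 0 and 8 below. Decr1 at 0.81, Eci1 at 0.76 and Acadm at 0.73 were the highest of them, and Acaa2 at -0.81 was the lowest. By summed level, the spiral genes had 15.1 FPKM in the astrocyte-labelled control, against 15.4 FPKM in the neuron-labelled one. The peroxisomal genes had 2.96 and 6.40 FPKM in that order and the ketone genes 1.34 and 3.98 FPKM.

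The bases before the annotated starts of the ketone genes are shown because all 3 genes were past 2-fold between the controls. All are from RefSeq, GRCr8, 5′ to 3′ in the direction of the gene: Bdh1 at chr11:82842637-82842886 (minus strand), Oxct1 at chr2:54963714-54963963 (plus strand) and Acat1 at chr8:62905043-62905292 (minus strand). Capitals mark the GC box GGGCGG and the inverted CCAAT box ATTGG, on either strand.
Bdh1: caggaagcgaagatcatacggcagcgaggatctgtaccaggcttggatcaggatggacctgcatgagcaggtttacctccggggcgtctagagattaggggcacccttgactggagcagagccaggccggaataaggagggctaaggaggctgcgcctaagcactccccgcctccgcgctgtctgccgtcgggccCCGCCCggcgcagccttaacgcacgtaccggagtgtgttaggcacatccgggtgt
Oxct1: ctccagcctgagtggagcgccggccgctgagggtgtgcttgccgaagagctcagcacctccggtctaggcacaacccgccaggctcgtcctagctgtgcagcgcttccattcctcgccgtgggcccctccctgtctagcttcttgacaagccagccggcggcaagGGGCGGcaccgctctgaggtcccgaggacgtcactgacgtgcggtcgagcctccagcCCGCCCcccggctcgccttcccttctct
Acat1: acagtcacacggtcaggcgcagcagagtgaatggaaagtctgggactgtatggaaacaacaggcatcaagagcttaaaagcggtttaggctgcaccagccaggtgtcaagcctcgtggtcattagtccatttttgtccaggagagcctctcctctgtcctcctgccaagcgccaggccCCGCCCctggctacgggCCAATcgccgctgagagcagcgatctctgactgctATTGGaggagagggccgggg
Each of the 3 stretches holds a GC box, and that of Acat1 also holds the inverted CCAAT box on both strands. That box was in 32.1% of the members' windows, against 38.0% of protein-coding ones, and the TATA box TATAAA in 3.57% against 13.0%. Among the members with a window, 23 of 28 held a GC box, 82.1%, against 41.8% of protein-coding windows and 33.1% of all windows. The exceptions were Acad9, Acadvl, Cpt1a, Etfa and Ppargc1a. The members' windows had a median GC content of 60.0% and a median of 16.5 CpG dinucleotides, against 55.0% and 11 over protein-coding windows. The part of base composition in the GC box share was not tested. A direct repeat of AGGTCA with 1 base between the copies, to which PPAR receptors can bind, was in 0 of 28 windows and in 0.0229% of protein-coding ones, which says only that these letters are not in these windows. The cAMP response element TGACGTCA was in 3 windows, those of Acadm, Ppargc1a and Acox3, 10.7% against 2.10%.

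Other genes around the pathway were read from 5 lists of acyl-CoA and carnitine supply, other mitochondrial enzymes, other peroxisomal genes, other ketone genes with monocarboxylate carriers, and partners and targets of PPAR and PGC-1. After insulin none of the compared genes of these lists was past 2-fold in any comparison, where 1.53% to 3.84% of all genes were. Slc16a1, the monocarboxylate carrier that takes ketone bodies and lactate across the membrane, came nearest, at 1.64, 2.38 and 3.25 FPKM in the neuron-labelled cultures, with log2 differences of 0.54 and 0.99. Astrocyte-labelled cultures had it at 1.21, 1.73 and 1.39 FPKM. Its level at 12 h in the neuron-labelled cultures was the highest of the 6. Fabp3, a fatty acid binding protein, differed by 0.75 at 6 h in the astrocyte-labelled cultures, at 1.54, 2.59 and 1.73 FPKM. Dbi, which carries acyl-CoA, was at 2.93, 3.87 and 4.02 FPKM there and at 16.0, 16.5 and 16.0 FPKM in the neuron-labelled cultures. Catalase (Cat) differed by -0.49 and -0.32 in the astrocyte-labelled cultures and by 0.22 and 0.38 in the neuron-labelled ones. In the neuron-labelled cultures Creb1 differed by 0.80 and 0.76, Sirt1 by 0.75 and 0.63 and Pprc1, a relative of Ppargc1a, by 0.64 and 0.75. These were 3 of 8 compared genes of the PPAR list, all past 1.5-fold, as were 11.1% and 14.9% of all genes. Of the 8, 3 were below 0 at 6 h and 4 at 12 h, among them Rxrb at -0.38 and -0.33. Ech1, of the other mitochondrial enzymes, differed by -0.38 and -0.33 in the astrocyte-labelled cultures and by -0.26 and -0.30 in the neuron-labelled ones.

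Between the controls these lists moved in both directions. In the supply list 4 of 9 compared genes were 2-fold or more lower in the astrocyte-labelled control, against 21.9% of all genes compared. In that list 2 of 9 were higher by as much, near the 18.7% of all genes. The acyl-CoA synthetase gene Acsl5 differed by 2.24, with 1.19 FPKM against 0.252 FPKM in the neuron-labelled control, and Acsl3 by -1.80, at 0.854 and 2.98 FPKM. The transporter gene Slc27a1 differed by -2.58 and Dbi by -2.45. Among other peroxisomal genes, the import receptor gene Pex5 differed by -1.76. Of 5 compared genes there 2 were 2-fold or more lower and 0 higher, beside the same shares of 21.9% and 18.7%. Of 3 other mitochondrial enzymes 0 were past 2-fold, against 40.6% of all genes in either direction. Acat2, the cytosolic relative of Acat1, went the other way from it and differed by 1.69, with 1.40 FPKM against 0.435 FPKM in the neuron-labelled control. Of the PPAR list, Plin2, which coats lipid droplets, differed by 2.03 and Angptl4, an inhibitor of lipoprotein lipase, by -3.25.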

How the data were processed

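The 6 libraries were made from total RNA by a strand-specific method that removes ribosomal RNA, per the labels' protocols. The authors deposited log2 FPKM values, quantile-normalised over the libraries, in 1 table of 37185 rows, as the table's name and values show. Partek 6.5, bcl2fastq 2.17.1.14 and build Rnor 6.0 are credited to the submitters' processing notes. The aligner and annotation version: not given in the sources used here. Counts were not used, so depth is unknown and no counting interval is given.

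Groups came from the titles, and columns were matched through the descriptions. For a repeated symbol the higher-mean row was used, and a blank was treated as no value. Differences were computed with pandas 2.3.3 and numpy 2.4.6 and checked on simulated data. Members, lists and the naming rule (members at 1 FPKM, past 1.5-fold after insulin, past 2-fold between controls, or among the largest of a step or list) were chosen with earlier results of these data known. Promoter windows and motifs, chosen after the values were seen, replaced the protein sequences first planned. Of 93 further pathway genes 1, and of 46 markers 1, were not analysed here. A result on 1 further gene is not reported here. Each microglia marker was at 0.118 FPKM or less and each endothelial marker at 0.0198 FPKM or less, and Foxj1, an ependymal marker, was between 0.0187 and 2.14 FPKM. The fibroblast markers summed to between 66.2 and 85.8 FPKM in the astrocyte-labelled libraries and to 0.0273 FPKM or less in the others.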

Additional observations from a re-analysis of the deposited data

Results flagged for a closer look

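Of the 18 members that reached 1 FPKM in a library, 4 had both insulin libraries on one side of the control in one culture and on the other side in the other culture. Of all 7754 genes that reached 1 FPKM in a library and had a value in every library, 23.4% did so. Each is given as the mean log2 difference of the astrocyte-labelled cultures minus that of the neuron-labelled cultures. That gap was 0.57 for Cpt1c, 0.38 for Acadvl, 0.38 for Acaa1a and -0.17 for Etfdh. Cpt1c averaged 0.50 in the astrocyte-labelled cultures and -0.08 in the neuron-labelled ones, and Acadvl averaged 0.32 and -0.07 in the same order. Cpt1c, Acadvl and Acaa1a kept opposite directions when the differences were centred on the median of all genes, and Etfdh did not. Cpt1c was below 1 FPKM in every neuron-labelled library, with differences of -0.06 and -0.09, and Etfdh in every astrocyte-labelled one. These 2 genes thus passed the floor only through the other culture. The difference between the cultures was not tested, since each group had 1 library.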

How the results depend on the processing

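No setting put a member past 2-fold after insulin. With the floor the 1.5-fold threshold added 1 member, at 12 h in the astrocyte-labelled cultures. Between the controls the 5 members past 2-fold became 10 of 34 with no floor, 8 of 15 at 1.5-fold and 1 of 15 with log2(FPKM + 1), where 46.6%, 59.5% and 25.5% of all genes were past the threshold in either direction. A median is said to have moved when it shifted by 0.1 or more on the log2 scale. In the astrocyte-labelled cultures the 6 h median of 0.229 was 0.0915 with no floor, 0.110 with log2(FPKM + 1), 0.126 after repeated quantile normalisation and 0.0713 with a mean of 0.25 FPKM or more over the 6 libraries. Both floors on that mean were added once values had been seen. The 12 h median of 0.175 was 0.354 with a floor of 5 FPKM, which left 1 member, and the shift of centring or of repeated normalisation gave 0.0729 and 0.0686. In the neuron-labelled cultures the median changed sign, from 0.0828 at 6 h to -0.0526 when centred and -0.0607 after repeated normalisation, and from 0.00332 at 12 h to -0.138 and -0.148. Centring removes the all-gene medians of 0.135 and 0.142 by construction, and the cause of the shift under repeated normalisation was not tested. The control median of -0.613 was -0.480 with no floor, -0.322 with log2(FPKM + 1), -0.508 centred, -0.492 after repeated normalisation, and -0.279 and -0.334 with mean floors of 1 and 0.25 FPKM. The all-gene medians with those mean floors were -0.0845 and -0.102. A floor of 5 FPKM left no member in the other comparisons. Depth is unknown, so differences of members below 1 FPKM have no known precision.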

Other observations

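Genes of mitochondrial import and the outer membrane, read for comparison with the oxidation genes, are given here as values. In the neuron-labelled cultures 11 of 11 compared genes were above 0 at 6 h and 10 of 10 at 12 h, with medians of 0.29 and 0.35, against 0.14 over all genes at each time. Of all genes compared, 68.1% were above 0 at 6 h and 66.1% at 12 h. Tomm20, an import receptor, was at 6.60, 9.67 and 9.05 FPKM there, and the matrix chaperone gene Hspa9 at 6.66, 8.20 and 9.94 FPKM. In the astrocyte-labelled cultures the medians were 0.11 and 0.20, against 0.09 and 0.10 over all genes, with 9 of 10 above 0 at 6 h and 10 of 10 at 12 h. None of these genes was past 2-fold after insulin, where 1.53% to 3.84% of all genes were. Citrate synthase (Cs) was at 1.54, 1.78 and 1.97 FPKM in the astrocyte-labelled cultures and at 2.56, 2.74 and 2.62 FPKM in the neuron-labelled ones.

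Some pathway genes below 1 FPKM had larger differences, in either direction, and they are named after their values were seen. With no floor, 13.4% and 13.3% of all genes were past 2-fold at 6 h and 12 h in the astrocyte-labelled cultures. In the neuron-labelled ones the shares were 17.3% and 18.5%. Slc16a3, a lactate carrier, was at 0.195, 0.587 and 0.436 FPKM in the astrocyte-labelled cultures, log2 differences of 1.59 and 1.16. Plin2 was at 0.280, 0.426 and 0.886 FPKM in the neuron-labelled cultures, a log2 difference of 1.66 at 12 h. Acaa1b differed by -2.09 and -2.06 in the astrocyte-labelled cultures and by -1.74 at 12 h in the neuron-labelled ones. In the astrocyte-labelled cultures Acot1 differed by -1.65 at 12 h, Pdk4 by -1.47 at 6 h and Acsl6 by 1.44 and 1.18. These are examples, and other genes of the lists were past 2-fold too.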
